A study of Homo sapiens with 6 samples.

Results

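The genes described here are 10 heat shock genes of the cytosol and the mitochondria, HSPA1A, HSPA1B, HSPA8, HSPH1, HSP90AA1, DNAJB1, HSPB1, HSPD1, HSPE1 and BAG3. They were chosen by symbol, each symbol matched 1 of the 57773 genes in the count table, and all 10 were among the 16290 genes that passed the filter on low counts. The RNA came from SW872, an established human liposarcoma cell line grown in RPMI-1640 with serum, and the study sequenced 3 replicates incubated with 18 μM Apatinib for 24 h and 3 replicates labelled as control, with no treatment and no named vehicle. Apatinib is a small molecule inhibitor of VEGFR-2, a receptor tyrosine kinase. The study's methods call the replicates biological. All came from the same cell line at a single dose and time, so the comparison describes this line only. Of 6 adipocyte markers, ADIPOQ, FABP4 and CEBPA had 0 counts in all 6 libraries (CEBPA was at up to 0.319 FPKM), PLIN1 was at 0.81 to 1.69 CPM, LPL at 8.57 to 23.5 CPM and PPARG at 50.0 to 64.2 CPM. Of 7 mesenchymal markers, VIM (776 to 1081 CPM) and FN1 (3213 to 4826 CPM) were high and THY1 (3.23 to 7.10 CPM) and COL3A1 (3.58 to 11.9 CPM) low.

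Heat shock proteins are molecular chaperones: they bind unfolded or partly folded proteins, keep them from clumping and help them to fold. HSP70 proteins work in cycles of ATP hydrolysis that J-domain proteins such as DNAJB1 start and that exchange factors such as HSPH1 and BAG3 end, and HSP90 takes over late folding steps of clients that include many kinases. In the mitochondrial matrix, HSPD1 forms a barrel that HSPE1 closes as a lid. Heat, oxidants and unfolded proteins activate the transcription factor HSF1, which binds arrays of the triplet GAA in alternating orientation in front of these genes. Tumour cells often carry high levels of these chaperones without any heat stress.

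The promoter sequences are shown first, because HSF1 binding arrays are the element that most of these genes are known to share. Windows from 250 bases before to 50 bases after each start site, from RefSeq on GRCh38.p14, were at hand for all 10 genes (14 windows, as HSPD1, HSP90AA1 and DNAJB1 have several starts). Searched on both strands, the letters GAANNTTC or TTCNNGAA, a pair of triplets, stood in 8 of the 14 windows and in 7 of the 10 genes, against 13.5% of all 35116 windows. A longer run of at least 3 triplets, GAANNTTCNNGAA or TTCNNGAANNTTC, which contains the pair, stood in 3 of the 14 windows (21.4%), each of another gene, against 0.49% of all windows. Each gene with a match is shown by a single stretch, although HSPA8 had a further run of 3 triplets and HSP90AA1 and DNAJB1 a further pair. In the stretches below the triplets are in capitals, each is written 5′ to 3′ on the strand of the gene, and they were chosen to show genes that fell beside genes that did not pass the test.
HSP90AA1 (chr14:102087112-102087140, minus strand): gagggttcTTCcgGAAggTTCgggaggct
HSPD1 (chr2:197500062-197500090, minus strand): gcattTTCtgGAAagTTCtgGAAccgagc
HSPA8 (chr11:123062171-123062199, minus strand): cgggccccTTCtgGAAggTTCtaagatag
HSPA1A (chr6:31815426-31815455, plus strand): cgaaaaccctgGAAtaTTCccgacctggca
HSPA1B (chr6:31827622-31827651, plus strand): cgaaacccctgGAAtaTTCccgacctggca
DNAJB1 (chr19:14518426-14518455, minus strand): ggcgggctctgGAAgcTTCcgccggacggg
HSPB1 (chr7:76302480-76302509, plus strand): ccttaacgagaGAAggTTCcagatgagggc
HSPD1 carried the longest run, of 4 triplets. HSPD1 and HSPE1 are read in opposite directions, and the run lay 228 bases before the downstream of the 2 listed HSPD1 starts and 294 bases before the HSPE1 start, 44 bases beyond the window searched for HSPE1. These starts are 539 bases apart. The other HSPD1 start was 189 bases from the run, on the side of HSPE1, and 105 bases from the HSPE1 start. The windows of HSPH1, HSPE1 and BAG3 held none of these letters, which says nothing about HSF1 at these genes outside the windows or at other spellings of the array.

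The libraries held between 17043314 and 22067558 counts. Counts are given as CPM, counts scaled to a common library total after TMM, a correction for the makeup of each library. Apatinib and control were compared with edgeR's quasi-likelihood test over all 16290 genes, and a gene was called where the Benjamini-Hochberg FDR was below 0.05 and the log2 fold change exceeded 0.5 in either direction. The first and second control replicates lay nearer to one another (mean chi-square per gene 2.27, where sampling noise alone gives about 1) than any other pair of the same group (18.2 to 44.5), and all 3 calls described next were lost after summing them into 1 sample or leaving either out. Calls over all genes fell in these fits too, from 1866 to 292 when summed and to 275 and 300 without the first and second. The log2 fold changes of the 3 genes stayed at -0.48 or below whichever single library was left out. Apatinib replicate 2 stood apart from the other libraries of its group (mean chi-square 34.3 and 44.5 against 18.2 between replicates 1 and 3), and main values are also given without it.

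Of the 10 genes, 3 fell in Apatinib-treated cells, HSPH1, HSP90AA1 and HSPD1, and 0 rose. Among all genes tested, 5.48% were called lower and 5.97% higher. At an unadjusted p under 0.05 in edgeR, 4 genes were lower, these 3 and HSPE1, and 0 were higher. Over all 16290 genes, 4979 were under that p, in either direction. DESeq2 likewise called 3 of the 10 lower and 0 higher, beside 7.28% of its genes called lower, and edgeR with the FDR limit alone called 3, beside 6.07%. On log2(FPKM + 1), limma called 3 lower, beside 1.52%. Without Apatinib replicate 2, edgeR called 2 of the 10 lower, HSPH1 and HSP90AA1, beside 3.63% of all genes, and 0 higher, beside 5.28%. The median log2 fold change of the 10 genes was -0.45, beside 0.00 for all genes, and 7 of the 10 values were below 0. Without Apatinib replicate 2 the median was -0.10 and 5 of the 10 values were below 0. In 5 of the 10 genes every Apatinib library was below every control library, against 15.7% of all genes tested. Together the 10 genes took 0.336%, 0.199% and 0.376% of the counts of the Apatinib libraries, in order of replicate, and 0.478%, 0.493% and 0.463% of those of the controls. In bulk RNA, fewer cells that express a gene and less RNA per cell cannot be told apart.

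**Figure D1:**
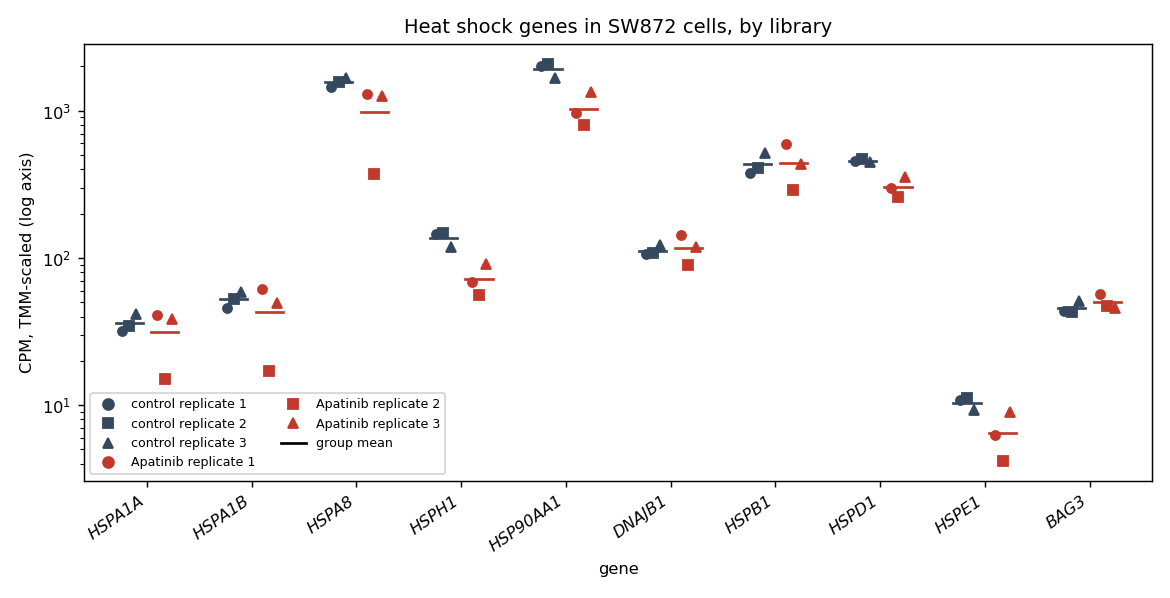
The plot shows the CPM of each of the 10 genes (log axis) in every library, with control in dark blue, Apatinib in red, a symbol for each replicate and a bar for the group mean. HSPH1, HSP90AA1, HSPD1, HSPA8 and HSPE1 have all Apatinib libraries below all control libraries, and the square of Apatinib replicate 2 is far below the rest for HSPA1A, HSPA1B and HSPA8.

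HSP90AA1 encodes the stress-inducible cytosolic HSP90, which folds kinases and steroid receptors. In order of replicate, as for every gene below, it was at 969, 793 and 1336 CPM with Apatinib and at 2024, 2081 and 1656 CPM in control. The groups did not overlap, although Apatinib replicate 3 and control replicate 3 came near each other. The mean was 1033 ± 277 CPM against 1921 ± 230 CPM (SD, n = 3 each), 1.86-fold lower, with a log2 fold change of -0.89 (SE 0.183, 95% interval -1.30 to -0.49, edgeR FDR 0.0137). Leaving out Apatinib replicate 2 gave -0.73 (FDR 0.0242), which was still called, while leaving out control replicate 1 or 2 gave an FDR of 0.0673 or 0.0711. Over the 6 fits that each left out 1 library, the log2 fold change of HSP90AA1 ranged from -1.12 to -0.73. HSP90AB1, the constitutive partner gene, was at 2079, 1582 and 1888 CPM with Apatinib and at 2225, 2216 and 2357 CPM in control. Its groups did not overlap either, but the log2 fold change of -0.29 (FDR 0.162) was not called.

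HSPH1 encodes HSP110, a large relative of HSP70 that exchanges its nucleotide. It was at 68.2, 56.0 and 91.1 CPM with Apatinib and at 145.5, 147.7 and 118.1 CPM in control, and the groups did not overlap. As for HSP90AA1, the third replicates of the 2 groups were the closest. It was 1.91-fold lower, the largest change of the 10 genes in this fit, with a log2 fold change of -0.93 (SE 0.174, 95% interval -1.31 to -0.55, edgeR FDR 0.0101). This interval overlapped that of HSP90AA1, and without Apatinib replicate 1 HSPA8 was further below 0 than HSPH1 (-0.93 against -0.90). The value of HSPH1 without Apatinib replicate 2 was -0.77 (FDR 0.0200, called). Without control replicate 1 or 2 it was -0.89 (FDR 0.0537) or -0.88 (FDR 0.0526), not called.

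The mitochondrial chaperonin HSPD1 was at 300.5, 257.6 and 354.3 CPM with Apatinib and at 454.8, 472.9 and 446.0 CPM in control. All control libraries were above all Apatinib libraries, with little spread among the controls (458 ± 13.7 CPM, SD, n = 3). It was 1.51-fold lower, with a log2 fold change of -0.59 (SE 0.134, 95% interval -0.88 to -0.30, edgeR FDR 0.0199). Without Apatinib replicate 2 the FDR was still 0.0324, but the log2 fold change of -0.48 was under the limit of 0.5. With each library left out in turn, HSPD1 was called in 2 of 6 fits, HSPH1 in 4 of 6 and HSP90AA1 in 4 of 6. Its partner HSPE1 was low in the count table, at 108, 74 and 156 counts with Apatinib and 187, 203 and 201 counts in control. That is 6.28, 4.18 and 8.93 CPM against 10.8, 11.2 and 9.21 CPM, so the groups did not overlap, by a narrow margin in replicate 3 of each. The log2 fold change was -0.68 (95% interval -1.22 to -0.15) and was not called (edgeR FDR 0.0841). Without Apatinib replicate 2 it was -0.44 (FDR 0.158). Both HSPE1 and HSPA8 were called when no filter on low counts was used, which brought the count to 5 of the 10 genes. Calls over all genes also rose in that fit, from 1866 to 2559.

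HSPA8, the constitutive cytosolic HSP70 that also uncoats clathrin vesicles, was the most abundant of the 10 genes by FPKM in control. It was at 1289, 371.5 and 1259 CPM with Apatinib and at 1457, 1555 and 1665 CPM in control. The groups did not overlap, but Apatinib replicates 1 and 3 were close to control and replicate 2 was far below both. The log2 fold change of -0.68 (SE 0.342, 95% interval -1.43 to 0.07) was not called (edgeR FDR 0.203). Without Apatinib replicate 2 it was -0.29 (95% interval -0.52 to -0.05, FDR 0.10), less than 0.5 in size and again not called.

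HSPA1A and HSPA1B encode nearly the same HSP70, the form most strongly induced by stress. HSPA1A was at 41.2, 15.0 and 38.4 CPM with Apatinib and at 31.9, 34.6 and 41.8 CPM in control. HSPA1B was at 61.3, 17.2 and 49.7 CPM with Apatinib and at 45.7, 52.9 and 59.1 CPM in control. For both genes Apatinib replicates 1 and 3 lay within or next to the control range and replicate 2 lay below every other library. In the GENCODE 29 transcripts, 69.9% of the 100-base windows of HSPA1A also occur in HSPA1B, so the split of reads between them is uncertain, and the counts were added. The sum was at 102.5, 32.2 and 88.2 CPM with Apatinib and at 77.6, 87.5 and 101.0 CPM in control, with a log2 fold change of -0.26 (SE 0.312, 95% interval -0.94 to 0.43, edgeR FDR 0.621). Without Apatinib replicate 2 the value was 0.11 (FDR 0.635). The direction of the inducible HSP70 pair thus turned with 1 library, and no change passed the test in either case. HSPA6, an HSP70 gene that is silent until strong stress, had 0 to 4 counts per library and was not tested.

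DNAJB1, the J-domain protein that is the main partner of inducible HSP70, was at 142.6, 90.0 and 119.2 CPM with Apatinib and at 106.7, 108.5 and 121.5 CPM in control. The groups overlapped, and Apatinib held both the highest and the lowest library. The log2 fold change was 0.06 (95% interval -0.29 to 0.41, edgeR FDR 0.829). HSPB1, a small heat shock protein that holds unfolded proteins without ATP and binds actin, was at 597, 290 and 436 CPM with Apatinib and at 380, 407 and 513 CPM in control, with a log2 fold change of 0.03 (95% interval -0.46 to 0.51, FDR 0.951). BAG3, which links HSP70 to autophagy, was at 56.7, 47.4 and 45.6 CPM with Apatinib and at 43.6, 43.1 and 50.8 CPM in control, with a log2 fold change of 0.12 (95% interval -0.17 to 0.42, FDR 0.579). The 3 genes had overlapping groups, and the intervals for DNAJB1 and BAG3 lay within the fold limit of 0.5 on both sides, while that of HSPB1 reached 0.51. With Apatinib replicate 2 left out, the values were 0.22 for DNAJB1 (95% interval -0.05 to 0.50, FDR 0.239), 0.26 for HSPB1 (-0.11 to 0.62, FDR 0.310) and 0.16 for BAG3 (-0.15 to 0.47, FDR 0.457), again with none called.

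**Figure D2:**
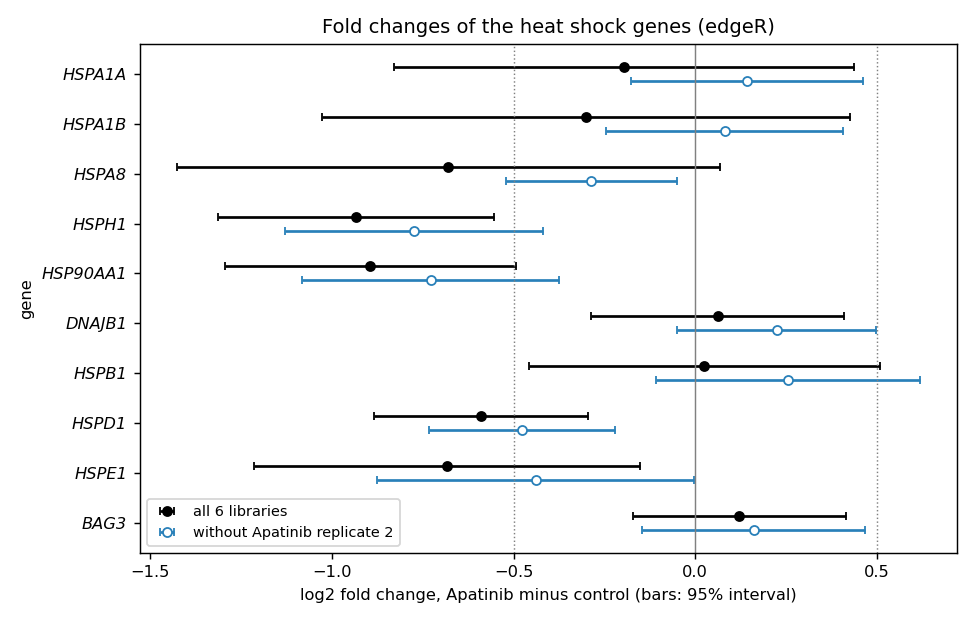
The plot shows the log2 fold change of each gene (points) with its 95% interval (bars), from all 6 libraries in black and without Apatinib replicate 2 in blue. Dotted lines mark the fold limit of 0.5. The values of HSPH1, HSP90AA1, HSPD1, HSPA8 and HSPE1 stay below 0 in both fits, and those of HSPA1A and HSPA1B move from -0.20 and -0.30 to 0.14 and 0.08.

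Apatinib replicate 2 was the lowest of the 6 libraries for 9 of the 10 genes, all but BAG3, where control replicate 2 was lowest. The same library was the lowest for 21.6% of all genes tested. With 0.5 CPM added, HSPA8 was 3.43-fold lower in this library than in the mean of Apatinib replicates 1 and 3, and 0 of the 16290 genes had a lower ratio. HSPA1B was 3.17-fold lower, with 2 genes at a lower ratio, and HSPA1A 2.60-fold lower, with 16. Other genes of the HSP70 family lay further in, such as HSPA2 (2.17-fold, with 52 genes at a lower ratio), HSPA1L (1.49-fold, 920) and HSPA14 (1.05-fold, 6971), all chosen after their values were seen. PCNA, on the proliferation list and also chosen after its values were seen, was 3.09-fold lower, with 5 genes at a lower ratio. Among the 10 genes, HSPB1 (1.78-fold), HSPE1 (1.73-fold) and the remaining genes (from 1.08-fold for BAG3 to 1.45-fold for HSP90AA1) were lower by less than HSPA1A. HSPA9, the HSP70 of the mitochondria, went the other way, at 1204 CPM in Apatinib replicate 2 beside 705 and 735 CPM in replicates 1 and 3 and 618 to 700 CPM in control. Its groups did not overlap, and the log2 fold change of 0.39 (edgeR FDR 0.188), or 0.11 (FDR 0.529) without Apatinib replicate 2, was not called.

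**Figure D3:**
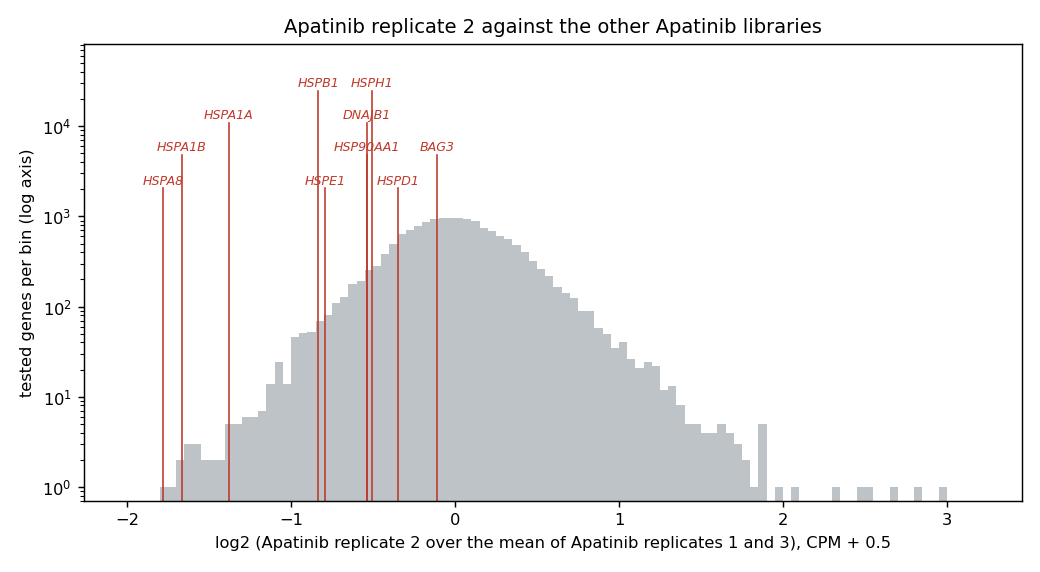
The histogram shows, for the 16290 genes tested, the log2 ratio of Apatinib replicate 2 to the mean of Apatinib replicates 1 and 3 (x axis) and the number of genes per bin (log axis), with red lines for the 10 heat shock genes. HSPA8 is the lowest of all genes, HSPA1B and HSPA1A follow near the left end, and all 10 lines are left of 0.

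Levels were compared between genes on the FPKM scale, which divides by transcript length. The order of the control means was HSPA8 (485 FPKM), HSP90AA1 (399), HSPB1 (317), HSPD1 (151), HSPA1A (51.6), HSPA1B (49.6), DNAJB1 (35.1), HSPE1 (30.4), HSPH1 (26.7) and BAG3 (12.4). The control ranges overlapped between HSP90AA1 and HSPB1, between HSPA1A and HSPA1B, and between HSPE1 and HSPH1, so these neighbours could not be ordered. For HSPE1, HSPA1A and HSPA1B the FPKM values and the counts were on unlike scales. The ratio of CPM to FPKM, which has the unit of a length, was 0.347 kb for HSPE1, beside an exon length of 1.98 kb. That is 0.175 of the exon length, where the median gene had 0.864, HSPA1A had 0.285 and HSPA1B had 0.407. HSPE1 shares 281 exon bases with HSPD1 on the opposite strand and 192 with the read-through gene HSPE1-MOB4, and the counting program is not given in the sources used here, so the level of HSPE1 in the counts is uncertain.

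The balance within families was taken as a ratio of FPKM values, which needs no scaling between libraries. The ratio of inducible HSPA1A and HSPA1B to constitutive HSPA8 was 0.284, 0.342 and 0.264 with Apatinib and 0.207, 0.208 and 0.212 in control. All Apatinib libraries were above all control libraries, also without replicate 2, with a difference of 0.50 on the log2 scale, or 0.39 without that replicate. The ratios are given as a description and were not tested. The ratio of HSP90AA1 to HSP90AB1 was 0.356, 0.383 and 0.544 with Apatinib and 0.697, 0.718 and 0.535 in control, and the third replicates overlapped. The ratio of HSPD1 to HSPE1 was 4.41, 7.61 and 4.38 with Apatinib and 4.78, 4.43 and 5.72 in control, with no separation of the groups.

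**Figure D4:**
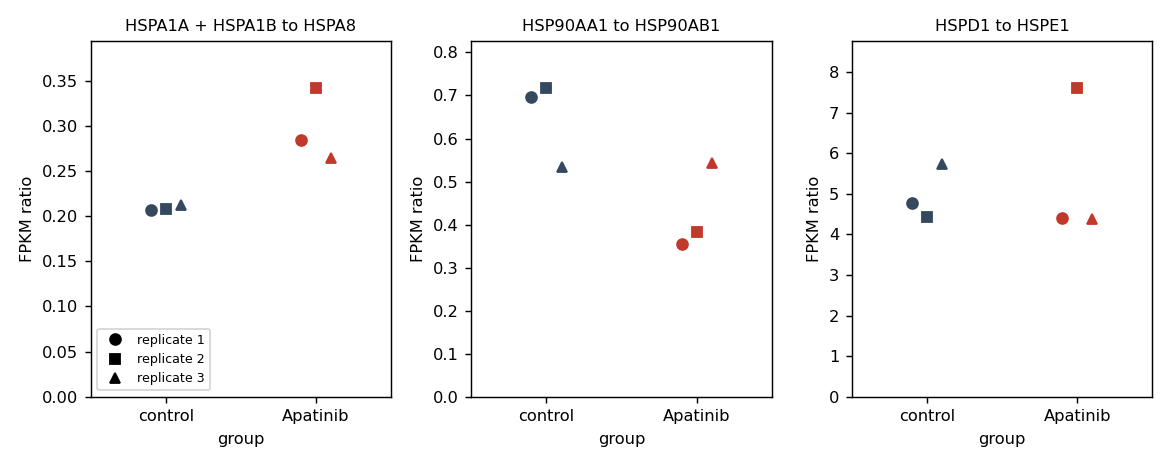
The panels show the FPKM ratio within 3 families in each library, with control in dark blue and Apatinib in red. The ratio of HSPA1A and HSPA1B to HSPA8 is above 0.26 in the Apatinib libraries and at most 0.212 in control, while the groups overlap in the other panels.

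The other chaperones were taken from 8 lists by role, 103 genes in all with the 10 above, of which 96 were tested. Of these, 11 fell (11.5%, where 5.48% of all genes were called lower) and 1 rose (1.04%, where 5.97% were called higher). Without the 10 genes, 8 fell (9.30%) and 1 rose (1.16%) among 86. When Apatinib replicate 2 was left out, 8 of 97 chaperone genes were called lower (8.25%, where 3.63% of all genes were) and 4 higher (4.12%, where 5.28% were). The 12 calls in these 8 lists depended on the first and second control replicates: 0 were left without control replicate 1, 0 without control replicate 2 and 0 with both summed, and 7 without Apatinib replicate 1. Over all genes, the 1866 calls became 275, 300, 292 and 795 in these fits. The log2 fold changes of the 12 genes kept their sign whichever single library was left out, and the smallest in size was -0.44, for CCT6A. Each call in the 8 lists below was thus lost without either of these controls, also where it was kept without Apatinib replicate 2. The median log2 fold change was -0.15 over the 96 genes and -0.11 over the 86.

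In the HSP70 and HSP110 family 3 of 12 tested genes fell and 0 rose (median -0.38). Beside HSPH1 these were HSPA4L (log2 fold change -1.10, FDR 0.0116), a further HSP110, and HSPA14 (-0.65, FDR 0.0150), an HSP70 bound to ribosomes. HSPA4L (FDR 0.0320), HSPA14 (-0.62, FDR 0.0295) and HSPH1 were called without Apatinib replicate 2 too, and 2 genes named for this result after their values were seen, HSPA2 (0.72, FDR 0.0139) and HSPA12A (0.63, FDR 0.0447), were called higher. HSP90 and its co-chaperones had 3 of 15 genes called lower and 0 higher, and 14 of 15 values below 0 (median -0.26). The 2 genes other than HSP90AA1 were CHORDC1 (-0.94, FDR 0.0133) and SUGT1 (-0.74, FDR 0.0109), which bind HSP90 through related domains. CHORDC1 was at 26.8, 31.5 and 36.2 CPM with Apatinib and at 67.9, 70.4 and 43.1 CPM in control, with control replicate 3 nearest to the Apatinib group. Both were called without Apatinib replicate 2 as well (-0.93, FDR 0.0310, and -0.68, FDR 0.0235). Among J-domain proteins of the cytosol and nucleus 1 of 17 fell, DNAJA1 (-0.66, FDR 0.0222), a partner of HSPA8, and 0 rose (median -0.11). DNAJA1 was at -0.49 (FDR 0.0263), under the fold limit, once Apatinib replicate 2 was left out, and 0 of the 17 were then called.

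The cytosolic chaperonin CCT and its helper prefoldin, which fold actin and tubulin, had 2 of 14 genes called lower, CCT6A (-0.53, FDR 0.0241) and VBP1 (-0.56, FDR 0.0260), and 0 higher (median -0.27). They were at -0.44 (FDR 0.0428) and -0.49 (FDR 0.0559) without Apatinib replicate 2, 0 of the 14 were called, and the median was -0.13. Of 17 mitochondrial chaperones and proteases HSPD1 was the 1 that fell, and 0 rose (median 0.00), with 0 of 17 called without Apatinib replicate 2. Of 11 exchange factors and cofactors of HSP70, 0 were called in edgeR or in DESeq2 (median 0.01). At an unadjusted p under 0.05, 2 were lower in edgeR, beside 4979 of all 16290 genes in either direction. They were BAG4 (-0.44, FDR 0.0493), short of the fold limit, and BAG5 (-0.33, FDR 0.0798). BAG4 was called lower (-0.51, FDR 0.0389) without Apatinib replicate 2. The small heat shock proteins held 5 tested genes, of which 1 rose and 1 fell (median 0.61). At an unadjusted p under 0.05 in edgeR 3 were higher and 1 lower, and DESeq2 called 2 higher and 1 lower. Over all genes, 4979 of 16290 were under that p and DESeq2 called 2046, each in either direction. HSPB8 (0.79, FDR 0.0510) and HSPB6 (0.61, FDR 0.0529), both named after their values were seen, had all Apatinib libraries above all control libraries and were not called in edgeR. CRYAB, the lens crystallin that also serves muscle, rose by a log2 fold change of 1.35 (FDR 0.0294) from a low level, at 2.15, 1.58 and 1.26 CPM with Apatinib against 0.69, 0.71 and 0.55 CPM in control. HSPB11 fell (-0.67, FDR 0.0152), and despite its symbol it is known as a subunit of the transport machinery of cilia. Both were called without Apatinib replicate 2 too (1.39, FDR 0.0488, and -0.58, FDR 0.0293), and HSPB6 was then called higher as well. CRYAB was called in 2 of the 6 fits with 1 library left out, and DESeq2 gave it no adjusted p, while HSPB11 was called in 4 of 6.

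**Figure D5:**
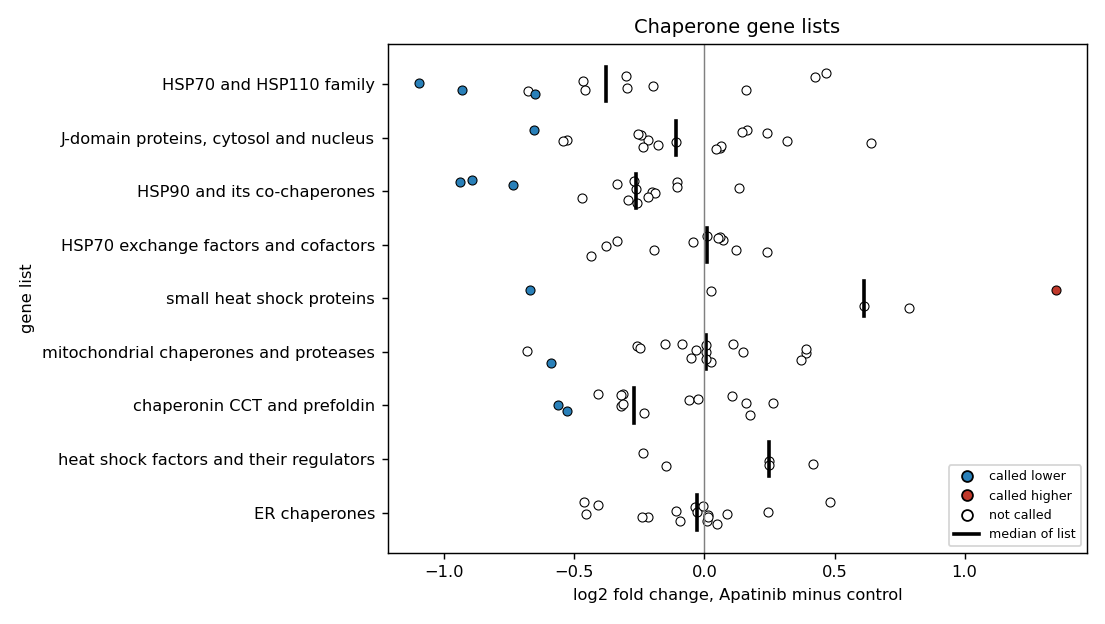
The plot shows the log2 fold change (x axis) of each tested gene in the 8 chaperone lists and in the chaperones of the endoplasmic reticulum, with genes called lower in blue, called higher in red and the list's median as a bar. Called genes are few in each list, and those of the HSP70 and HSP110 family and of HSP90 and its co-chaperones lie between -0.65 and -1.10.

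The heat shock factors and their regulators had 0 of 5 genes called in edgeR or in DESeq2 (median 0.25). At an unadjusted p under 0.05 in edgeR there were 0 too, beside 4979 of all 16290 genes in either direction. HSF1 was at 114.9, 131.6 and 88.3 CPM with Apatinib and at 89.2, 90.3 and 102.2 CPM in control (log2 fold change 0.25, edgeR FDR 0.289). Leaving out Apatinib replicate 2 gave 0.12 (FDR 0.597), which was then also the median of the list. HSF2 had a value of -0.15 (FDR 0.587), and HSF2BP, which binds HSF2, a value of 0.42 (FDR 0.272). The groups overlapped for these 3 genes, and RNA does not show whether HSF1 protein was active. A list of 33 genes known as HSF1 targets, which holds all 10 heat shock genes above, had 6 genes called lower and 1 higher among 31 tested (median -0.26), all of them named above, and 4 lower and 1 higher (median -0.09) without Apatinib replicate 2. These calls too went to 0 without control replicate 1, without control replicate 2 and with both summed. Calls over all genes went from 1866 to 275, 300 and 292 in these fits. Chaperones of the endoplasmic reticulum had 0 of 17 genes called in edgeR or in DESeq2 (median -0.03). At an unadjusted p under 0.05 in edgeR 3 were lower, beside 4979 of all 16290 genes in either direction. Of the 17, those with the smallest p were DNAJC3 (-0.46, FDR 0.0345), short of the fold limit, and HSP90B1 (-0.46, FDR 0.0684). Leaving out Apatinib replicate 3 or control replicate 3 gave 2 calls each among the 17, beside 2030 and 2594 over all genes.

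Part of a list of proliferation genes was called lower as well. All 15 on that list had values below 0 (median -0.57). Of them, 6 were called lower, where 5.48% of all genes were, and 9 were not called. MKI67 (-1.19, FDR 0.0108) and CDK1 (-1.02, FDR 0.0140) were the 2 with the smallest p. The median without Apatinib replicate 2 was -0.35, and the genes then called lower were 3, MKI67 (-0.92, FDR 0.00454), CDK1 (-0.81, FDR 0.0248) and TOP2A (-0.82, FDR 0.0352). Of these, MKI67 was called in 6 of the 6 fits that leave out 1 library, CDK1 in 4 and TOP2A in 3. The list's summed level was 1939 to 3401 CPM with Apatinib and 4434 to 4740 CPM in control, beside 1942 to 3739 and 4682 to 4913 CPM for the 10 heat shock genes. The part of proliferation in the heat shock values was not tested. Of 5 leukocyte markers, PTPRC was at 0 in counts and FPKM and 1 was tested, CD14, at 2.29 to 5.17 CPM. CD68, a macrophage marker that other cells also express, had 0 or 1 counts per library but was at 11.8, 8.57 and 6.78 FPKM with Apatinib and 3.30, 1.79 and 2.85 FPKM in control, so the count table and the FPKM values differ for it. These groups did not overlap, and its part in the heat shock values was not tested. The endothelial genes VWF (higher, 1.52, FDR 0.0386) and CDH5 (lower, -1.22, FDR 0.0242) were called in opposite directions at 0.52 to 3.03 CPM. Each was called in 2 of the 6 fits that leave out 1 library. KDR, also on that list, had 4 to 11 counts and was not tested. Of 5 epithelial genes, EPCAM, CDH1 and KRT5 had at most 7 counts in any library and were not tested. The other 2, KRT8 and KRT18, summed to 122 to 155 CPM with Apatinib and 92.7 to 107 CPM in control, with KRT8 higher (0.71, FDR 0.0166). Mesenchymal markers summed to 5164 to 6095 CPM with Apatinib and 4308 to 4456 CPM in control, with 1 of 7 called, COL3A1 (1.18, FDR 0.00955), and adipocyte markers had 1 of 3 tested genes called, LPL (0.84, FDR 0.0237).

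The genes whose log2 CPM profile over the 6 libraries was most like the mean standardized profile of the 10 heat shock genes were MXD3 (r = 0.998), a partner of MAX in the MYC network, the mitotic kinase AURKA (r = 0.996) and the ubiquitin ligase UBE4B (r = 0.996). The 6 points share the group difference and Apatinib replicate 2, and 555 of 16280 genes had an r above 0.9. The log2 fold changes of these 3 genes were -0.54, -0.39 and -0.22, and none was called (edgeR FDR 0.198, 0.184 and 0.352). They were -0.23, -0.17 and -0.06 without Apatinib replicate 2.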

How the data were processed

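RNA-seq of SW872 cells was analysed in 3 Apatinib and 3 control replicates, grouped by their titles. The authors deposited whole-number counts of 57773 genes, not normalized, and per-library FPKM values. The submitters' processing notes name CASAVA, STAR 2.7.1a and hg19 without roles, and the counting program, its annotation and its strand setting are not given in the sources used here, so reads of genes that overlap on opposite strands cannot be told apart. The FPKM values of Apatinib replicate 1 came with 1 further column headed as control replicate 3, which differed from that library's own values by up to 14.2 FPKM and was not used.

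The counts were fitted in edgeR 4.0.16 under R 4.3.3 (filterByExpr, TMM factors of 0.952 to 1.03, glmQLFit and glmQLFTest on group), and p values were Benjamini-Hochberg adjusted over 16290 genes. The limits on FDR (below 0.05) and log2 fold change (beyond 0.5 either way) follow the study's methods. In all, 4979 genes had an unadjusted p under 0.05. The biological coefficient of variation was 0.149. Scripts were tested on simulated data. Alternatives were DESeq2 1.42.0, RLE size factors, a minimum total of 1 as the only filter, a minimum of 10 counts per library, a replicate block, control replicates 1 and 2 summed, each library left out, an FDR limit alone, and limma 3.58.1 on log2(FPKM + 1) or log2(FPKM + 0.1) with a mean FPKM minimum of 0.5, and on log2(FPKM + 1) without it. Pairs of libraries were compared by chi-square over genes whose counts in the pair reached 50. Promoter windows came from RefSeq (GRCh38.p14) and transcripts from GENCODE 29, whose identifiers matched 52338 of the 57773 genes. Neither is the build of the files, so no coordinates of the 2 were joined.

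The members and all lists were chosen with earlier results of these data known. The rule for named genes was all 10 genes, up to 5 called genes of each list by p or else the 2 with the smallest p, HSP90AB1, HSPA9, HSPA6, HSF1 and HSF2, and the 3 genes most like the mean profile. Set tests were not run.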

Additional observations from a re-analysis of the deposited data

How the results depend on the processing

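The 1866 genes called overall became 292 with control replicates 1 and 2 summed, 796, 810 and 9 with limma on log2(FPKM + 1), log2(FPKM + 0.1) and log2(FPKM + 1) without a filter, and 275 to 2594 when 1 library was left out. They became 2559 without a filter on low counts and 2215 with the replicate block. The 3 heat shock genes called became 5 without a filter on low counts, 0 with those controls summed, 0 with limma without a filter, and 0 to 4 when 1 library was left out, with 0 in the fits without control replicate 1 or 2. The 12 chaperone genes called became 0 with the controls summed, 0 with limma without a filter, and 0 to 17 when 1 library was left out. The summed HSPA1A and HSPA1B value of -0.26 ranged from -0.56 to 0.11 when 1 library was left out. Values that changed sign were all uncalled. Without 1 library, HSPA1A ranged from -0.434 to 0.144, HSPA1B from -0.651 to 0.0810, DNAJB1 from -0.0992 to 0.225, HSPB1 from -0.254 to 0.256 and HSF2 from -0.259 to 0.00365. HSPB1 was at -0.0265 with the replicate block, -0.0432 with the controls summed, -0.0124 and -0.0125 with limma at pseudocounts of 1 and 0.1, and -0.0124 without its filter. The replicate numbers did not pair the libraries, with correlations of -0.26, 0.08 and -0.22 between libraries of the same number, and the replicate block called 5 of the 10 genes, adding HSPA8 (-0.86, FDR 0.000371) and HSPE1 (-0.73, FDR 0.0209). With 3 libraries a group, HSPA1A and HSPA1B counts share most of their sequence and HSPE1 rests on 74 to 203 counts, which limits what can be said of these genes. The cause of each change was not tested.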
